A study of Mus musculus with 12 samples.

Results

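Chemokines and chemokine receptors were measured in 12 mouse breast tumours as 68 protein-coding gene entries out of 55487 genes counted. Members were taken by name: symbols that begin with Ccl, Cxcl, Ccr or Cxcr followed by a digit, together with Cx3cl1, Cx3cr1, Xcl1, Xcr1 and the atypical receptors Ackr1 to Ackr4. The 68 entries carry 62 symbols, since Ccl19, Ccl21 and Ccl27 genes are present in several copies, and divide into 45 ligand and 23 receptor entries. At least 1 read was counted for 56 of them, and 45 (28 ligands and 17 receptors) had enough reads to be tested.

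All tumours came from C57BL/6J mice carrying MMTV-PyMT, a transgene with the polyoma middle T oncogene under the long terminal repeat of mouse mammary tumour virus, which is active in mammary epithelium. Bad_WT mice had wild-type Bad, and Bad3SA mice carried Bad with its regulatory serines replaced by alanine, which cannot be phosphorylated. Each group held 6 mice, with 1 tumour library per mouse. Mice reached end point at 21.3 to 27.1 weeks in Bad_WT (mean 24.0 ± 1.93, SD, n = 6) and at 22.9 to 31.1 weeks in Bad3SA (mean 27.5 ± 2.85). The labels give the genotype of the mouse, so a contribution of tumour cells and one of host cells cannot be told apart. Libraries held between 58096172 and 83296370 counts, so 3 counts were worth 0.0346 to 0.0545 CPM (counts scaled to library size, with TMM factors). Markers of luminal epithelium, the cell type in which the oncogene is expressed, summed to 4839 to 6791 CPM in every tumour.

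Chemokines are small secreted proteins that bind G protein-coupled receptors on leukocytes and other cells and direct their migration. CXC and CC ligands are named for the spacing of their first cysteines. ELR CXC ligands draw neutrophils through CXCR2, CXCL9 and CXCL10 are interferon-induced and draw T and NK cells through CXCR3, and many inflammatory CC ligands are products of macrophages. Atypical receptors bind chemokines without G protein signalling and lower their local level. In mammary tumours chemokines take part in bringing myeloid and lymphoid cells into the tissue, and epithelium, stroma and leukocytes all produce them.

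No member passed the test for a genotype difference at an adjusted p of 0.05. Many members varied widely between individual tumours: Bad_WT 4 and Bad3SA 2 were high, and Bad_WT 6 was low, for many ligands and receptors at once. Ccl20, too scarce for the main test, was the only member whose level did not overlap between genotypes. Ccl6, Ccl8 and Ccl9, macrophage-associated ligands encoded on chromosome 11, were high in the same pair of tumours, 1 of each genotype. The promoters of these 4 genes are shown because the data turn on them, and that of Cxcl10 as an interferon-induced ligand for comparison. Each sequence is the 250 bases before the RefSeq transcript start on GRCm38.p6, written 5′ to 3′ along the gene. Capitals mark matches on either strand to the NF-kB consensus, to the interferon response element GAAANNGAAA, to the GAS element TTCNNNGAA or to the PU.1 core GAGGAA.
Ccl20, chr1:83116516-83116765, plus strand: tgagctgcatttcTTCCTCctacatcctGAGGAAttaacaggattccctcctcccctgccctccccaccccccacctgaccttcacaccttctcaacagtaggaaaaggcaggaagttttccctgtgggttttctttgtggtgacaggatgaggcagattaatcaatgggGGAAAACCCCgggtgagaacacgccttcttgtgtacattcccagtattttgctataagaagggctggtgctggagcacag
Ccl6, chr11:83593088-83593337, minus strand: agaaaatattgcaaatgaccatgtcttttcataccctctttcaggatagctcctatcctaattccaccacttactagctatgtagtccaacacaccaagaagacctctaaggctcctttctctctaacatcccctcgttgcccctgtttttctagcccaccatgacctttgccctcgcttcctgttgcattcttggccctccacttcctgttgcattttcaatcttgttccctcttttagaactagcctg
Ccl8, chr11:82114935-82115184, plus strand: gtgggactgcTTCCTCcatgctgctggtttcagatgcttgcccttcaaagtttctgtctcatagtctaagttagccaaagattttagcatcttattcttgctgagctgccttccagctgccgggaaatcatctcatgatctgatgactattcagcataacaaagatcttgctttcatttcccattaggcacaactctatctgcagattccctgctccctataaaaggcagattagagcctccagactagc
Ccl9, chr11:83578637-83578886, minus strand: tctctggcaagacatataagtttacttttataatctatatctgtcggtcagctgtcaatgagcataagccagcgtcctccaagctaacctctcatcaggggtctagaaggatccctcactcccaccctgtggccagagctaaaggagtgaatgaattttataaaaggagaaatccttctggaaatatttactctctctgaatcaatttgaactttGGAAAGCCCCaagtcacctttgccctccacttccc
Cxcl10, chr5:92348890-92349139, minus strand: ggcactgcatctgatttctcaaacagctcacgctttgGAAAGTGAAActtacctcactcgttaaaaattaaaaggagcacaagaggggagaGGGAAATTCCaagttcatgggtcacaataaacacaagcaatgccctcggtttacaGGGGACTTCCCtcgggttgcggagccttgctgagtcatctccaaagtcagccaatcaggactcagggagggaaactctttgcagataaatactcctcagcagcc

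The Ccl20 window held 1 NF-kB match, beginning at position -80 from the start, and 2 PU.1 cores. Ccl9 had 1 NF-kB match at -35, and Ccl8 had 1 PU.1 core at -240. None of the 4 motifs was found in the Ccl6 window. Cxcl10 held an interferon response element at -213 and 3 NF-kB matches, of which a pair overlap by all but 1 base. Over the 54 windows available for 47 member symbols, 20.4% held an NF-kB match, against 7.25% of all 32817 promoter windows of the same length. The other shares were 5.56% against 2.97% for the interferon response element, 7.41% against 7.01% for the GAS element, and 31.5% against 23.3% for the PU.1 core. Neighbouring chemokine genes share ancestry, so these shares describe the windows and were not tested.

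Ligand RNA was dominated by a few genes. On a scale per gene length (RPKM, TMM-scaled CPM per kilobase of exon), Cxcl14, an epithelial chemokine, averaged 54.1 over the 12 tumours and made up 26.8% of the summed ligand level. Cx3cl1, the membrane-tethered fractalkine, averaged 34.0 RPKM (16.9%). Ccl8, an inflammatory CC ligand, averaged 22.1 RPKM (10.97%), Cxcl16, the ligand of CXCR6, 20.1 RPKM (9.98%), and Ccl6 14.7 RPKM (7.30%). Their ranges over tumours overlapped: Cxcl14 ran from 16.2 to 95.8 RPKM, Cx3cl1 from 17.2 to 50.4, Ccl8 from 3.24 to 53.6, Cxcl16 from 15.5 to 32.7 and Ccl6 from 2.55 to 46.4. Next came Cxcl17 at 10.01 RPKM, the CXCR4 ligand Cxcl12 at 6.20, Ccl9 at 6.14 and the T cell attractant Ccl5 at 5.10. Ranks and shares depend on the exon lengths used. In CPM, Cx3cl1 averaged 146 in Bad_WT and 121 in Bad3SA, above Cxcl14 at 88.5 and 109. Likewise Cxcl12, at 51.9 and 49.5 CPM, stood above Ccl8 at 7.47 and 15.1 CPM.

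Receptor RNA was more concentrated still. Cxcr4, the receptor of CXCL12 and present on many tumour and immune cells, averaged 35.7 RPKM and made up 59.96% of the summed receptor level. Cx3cr1, the fractalkine receptor of monocytes and macrophages, averaged 8.26 RPKM (13.9%), and Ackr3, which scavenges CXCL12, averaged 6.58 RPKM (11.1%). Cxcr4 did not fall below 20.3 RPKM in any tumour, above the highest value of Cx3cr1 (12.7 RPKM) and of Ackr3 (9.97 RPKM). Ccr1 at 2.49 RPKM and Ccr2 at 1.62 RPKM, receptors of monocytes and macrophages, followed, and their ranges overlapped.

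**Figure D1:**
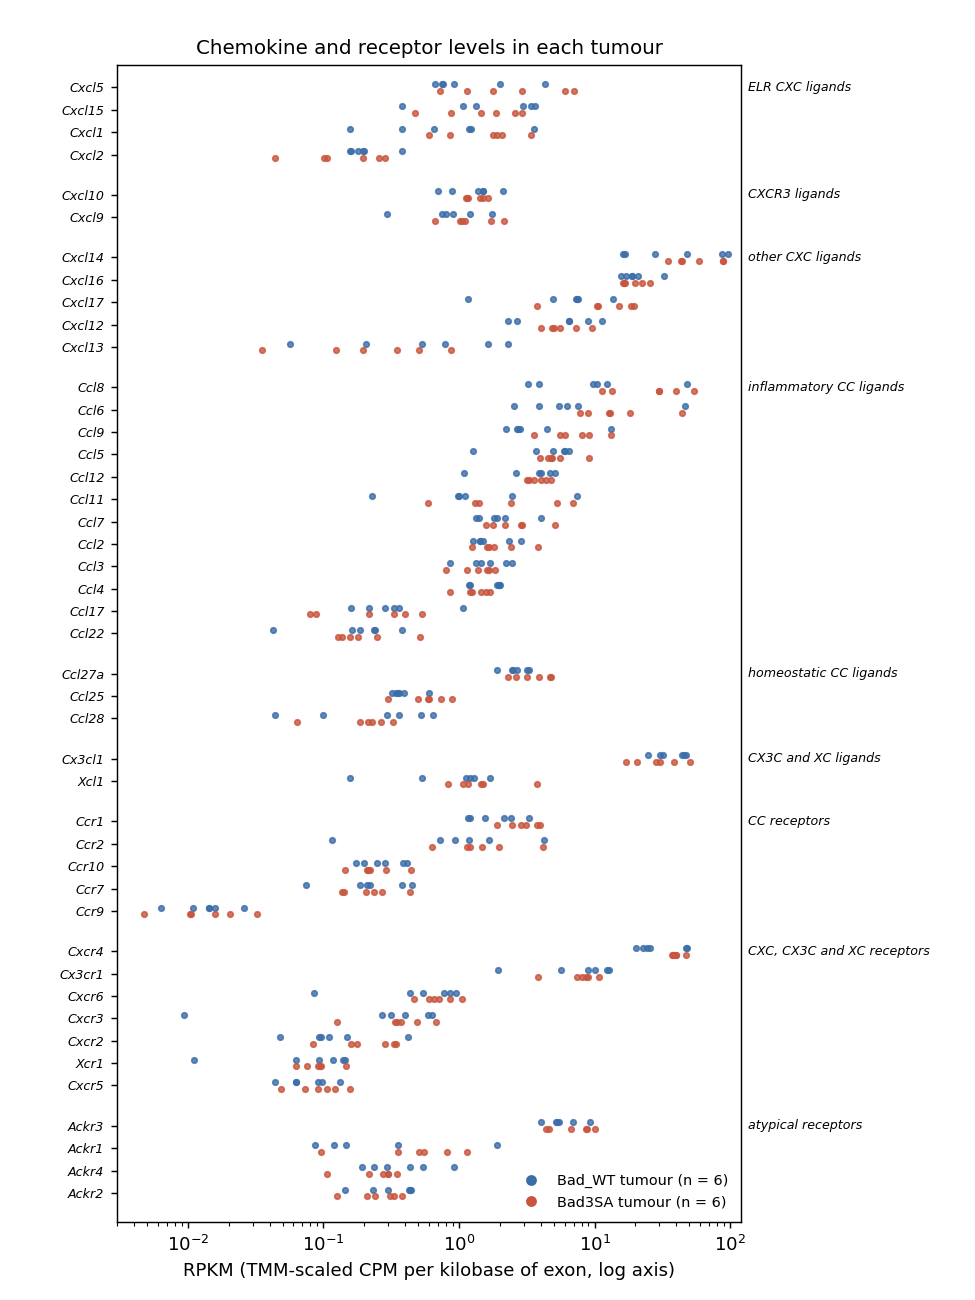
Levels of tested members in each tumour in RPKM on a log axis, grouped by role; each point is 1 tumour, blue for Bad_WT (n = 6) and red for Bad3SA (n = 6). Cxcl14, Cx3cl1, Cxcl16 and Cxcr4 stay above 15 RPKM in every tumour, and points of the genotypes overlap for each gene shown.

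A further 11 members were counted but not tested: Ccl1, Ccl19, Ccl20, Ccl24, Cxcl3, Ccr1l1, Ccr3, Ccr4, Ccr6, Ccr8 and Cxcr1. Cxcr1 had between 0 and 1 count in each tumour. Ccr4 and Ccl24 showed wide contrasts between tumours, and are named for that after their values were seen. Ccr4, the receptor of CCL17 and CCL22 on regulatory and type 2 T cells, had 104 counts in Bad_WT 4 and 141 in Bad3SA 1, and between 1 and 23 in the other tumours. Ccl24, an eosinophil attractant, had 60 counts in Bad_WT 4 and 187 in Bad3SA 2, and between 0 and 26 elsewhere.

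The remaining 12 entries had no count in any tumour, which allows up to 3 counts per tumour. They comprise the 7 Ccl21 entries, Ccl27b, 2 further Ccl27a entries, 1 further Ccl19 entry and Ccl26. CCL19 and CCL21 guide T cells and dendritic cells into lymph nodes through CCR7. These copies share sequence: of all stretches of 100 bases, the read length, 50.3% in Ccl21a, 96.9% in Ccl21d, 100% in Ccl21b and 97.9% in Ccl27b also occur in transcripts of other genes, and the share was 39.3% in the counted Ccl19 and 26.5% in the tested Ccl27a. The labels do not say how reads with several matches were counted, so the level of these genes is uncertain. Exons of Cxcl10, Cxcl16, Ccl25, Ccl27a, Ackr4, Cxcr5, Xcl1, Ccr9 and Cx3cr1 overlap a gene on the opposite strand, and whether reads were counted by strand is not stated. On the same strand, exons of Ackr1 overlap Cadm3 and those of Ccr9 overlap Gm17200. Transcripts of these neighbours hold 13.6% of the 100-base stretches of Ackr1 and 1.6% of those of Ccr9.

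Tumours differed from each other across roles. Each tumour's level was set against the median of the other 5 tumours of its genotype, and the median of that ratio over the 45 tested members was 1.74 in Bad_WT 4, 1.39 in Bad3SA 2 and 0.446 in Bad_WT 6, against 0.775 to 1.21 in the other 9. Bad_WT 4 held the highest level of all 12 tumours for 16 of the 45 members and Bad3SA 2 for 9, while Bad_WT 6 held the lowest for 24. The same ratios and counts were not computed over all tested genes, so they do not set the members apart from other genes. Ccr2, the receptor that brings monocytes from blood, shows the pattern: it reached 28.5 CPM in Bad_WT 4 and 28.2 CPM in Bad3SA 2, against 0.784 CPM in Bad_WT 6 and between 4.30 and 13.2 CPM in the remaining tumours. The eosinophil attractant Ccl11 was at 7.96 CPM in Bad_WT 4, 7.501 CPM in Bad3SA 2 and 0.245 CPM in Bad_WT 6. Ackr1, a receptor of venular endothelium, was at 2.68 CPM in Bad_WT 4 and had no count in Bad_WT 6.

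Cxcl16, from 46.9 to 98.6 CPM, varied least among the tested members, with 2.10-fold between its highest and lowest tumour, followed by Ccl4 (2.31-fold) and Cxcr4 (2.35-fold). Cx3cl1 in Bad_WT 6, at 173 CPM, was among the higher values of its group, as was Cxcr4 at 86.2 CPM, so the low level of that tumour did not extend to every member.

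Markers of several other cell types, though not of all, were also highest or lowest in these tumours. The 10 macrophage markers, among them C1qa, Csf1r and Cd68, summed to 933 CPM in Bad_WT 4 and 924 CPM in Bad3SA 2, the highest of each group, where the groups ranged from 333 to 933 and from 382 to 924 CPM. The 6 fibroblast markers summed to 1441 and 1610 CPM in these tumours, also the highest of each group (ranges 217 to 1441 and 214 to 1610 CPM). The 7 eosinophil and mast cell markers did likewise, at 12.2 and 8.40 CPM (ranges 0.147 to 12.2 and 0.447 to 8.40 CPM). That sum came mostly from the mast cell markers Mcpt4, Tpsb2, Cma1 and Cpa3. Mcpt4 averaged 0.906 CPM in Bad_WT and 1.25 CPM in Bad3SA. The eosinophil marker Siglecf averaged 0.215 and 0.235 CPM, and Epx and Prg2 had 3 and 35 counts over all tumours. The sum therefore does not show whether eosinophils differed between tumours. Bad_WT 4 and Bad3SA 2 were also the highest of their group for the 4 lymphatic endothelial markers (75.0 and 69.7 CPM). By a small margin the same held for the 7 dendritic cell markers (53.3 and 53.7 CPM). In Bad_WT 4 alone, the 4 basal epithelial markers summed to 1058 CPM, against 129 to 469 CPM in the other Bad_WT tumours. Adipocyte markers stood at 43.4 CPM in Bad_WT 4, against 2.499 to 13.9 CPM in the rest of its group, and at 41.7 CPM in Bad3SA 2, below Bad3SA 5 (157 CPM). Bad_WT 6 had the lowest sums of its group for macrophage markers (333 CPM), fibroblast markers (217 CPM) and the 10 T cell markers (3.69 CPM, against 10.1 to 15.6 CPM in the other Bad_WT tumours). No marker of these lists was at 0 in all tumours. The part of these cells in the chemokine levels was not tested, and in RNA from whole tumours fewer cells of a type and less RNA per cell cannot be told apart.

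**Figure D2:**
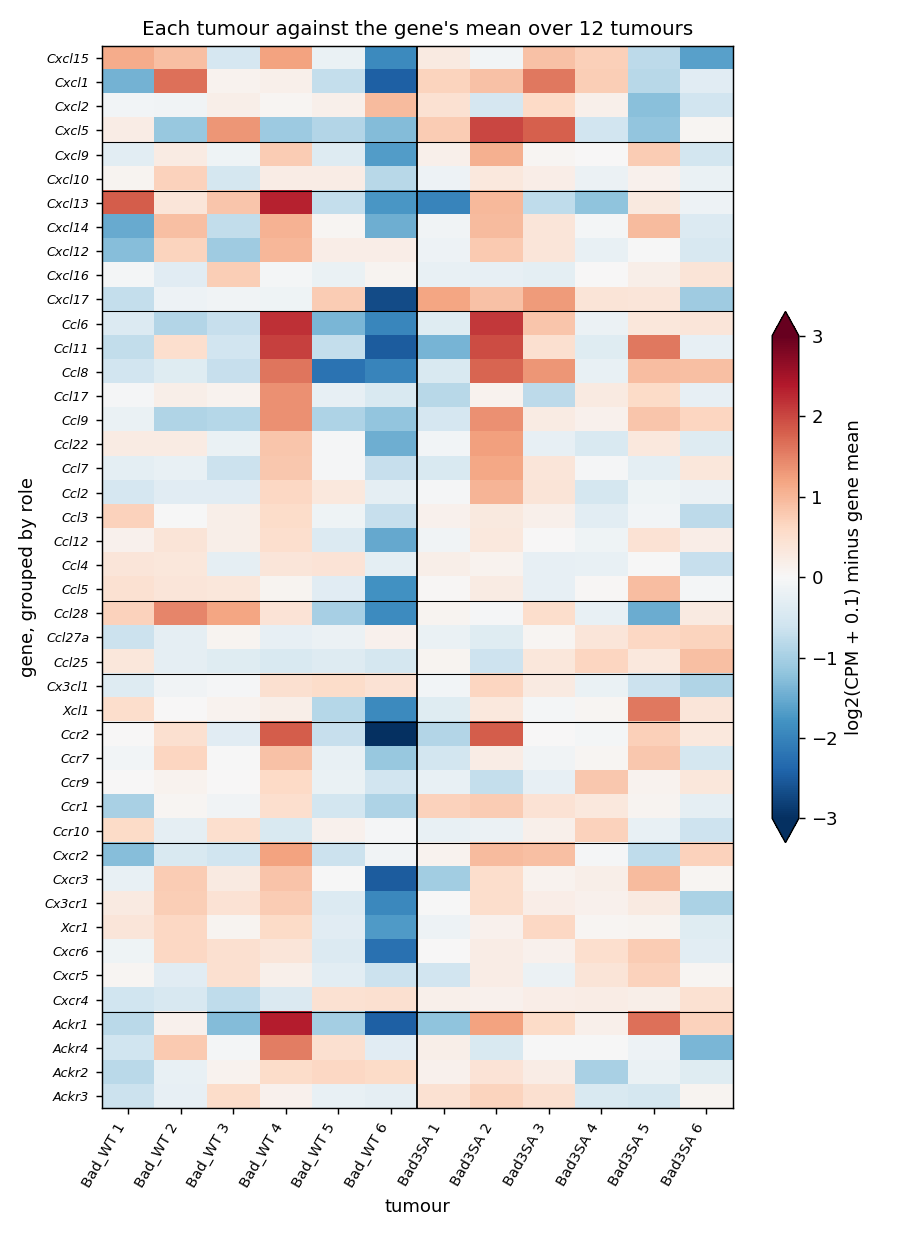
Tested members (rows, grouped by role) in each tumour (columns), as log2(CPM + 0.1) minus the gene's mean over 12 tumours; red is above and blue below that mean. The columns of Bad_WT 4 and Bad3SA 2 are red and that of Bad_WT 6 blue across much of the inflammatory CC ligands and the leukocyte receptors.

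The genotype comparison asks whether blocking BAD phosphorylation goes with another chemokine profile of the tumour. With edgeR's quasi-likelihood test and Benjamini-Hochberg adjustment, 0 of the 45 tested members had an adjusted p under 0.05, where 249 of 18019 genes did (1.38%, with 0.622% higher and 0.76% lower in Bad3SA). Unadjusted p-values were under 0.05 for 2 members, against 16.2% of all genes. Fold changes are log2, Bad3SA over Bad_WT. Estimates were above 0 for 28 members and below 0 for 17, with a median of 0.20, beside 0.00326 over all tested genes. With end-point age as a covariate the median was -0.22, again with no member called, where 0.405% of genes were. For none of the 45 did the tumours of the genotypes separate, where 2.23% of all tested genes did so. DESeq2's Wald test called 1 of 53 members, Ccl20, beside 4.21% of genes, and limma voom with quality weights called 0 of 45, beside 3.21% of genes. With limma voom 9 members had an unadjusted p under 0.05. The share of all genes with such a p was not computed for that fit.

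The median moved with single tumours: it was 0.00221 without Bad3SA 2, 0.0149 without Bad_WT 6 and 0.30 without Bad_WT 4. The 10 T cell markers all had estimates above 0 (median 0.63, none called), with sums of 3.69 to 15.6 CPM in Bad_WT and 11.3 to 23.0 CPM in Bad3SA. The 5 adipocyte markers had a median of 1.76, none called, with sums of 2.499 to 43.4 and 5.44 to 157 CPM. The 3 tested B cell markers (median 0.38) and the 5 tested eosinophil and mast cell markers (0.46) were also all above 0. Medians of the other marker lists ran from -0.16 (basal epithelium) to 0.25 (NK cell). The part of these cell types in the members' estimates was not tested.

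**Figure D3:**
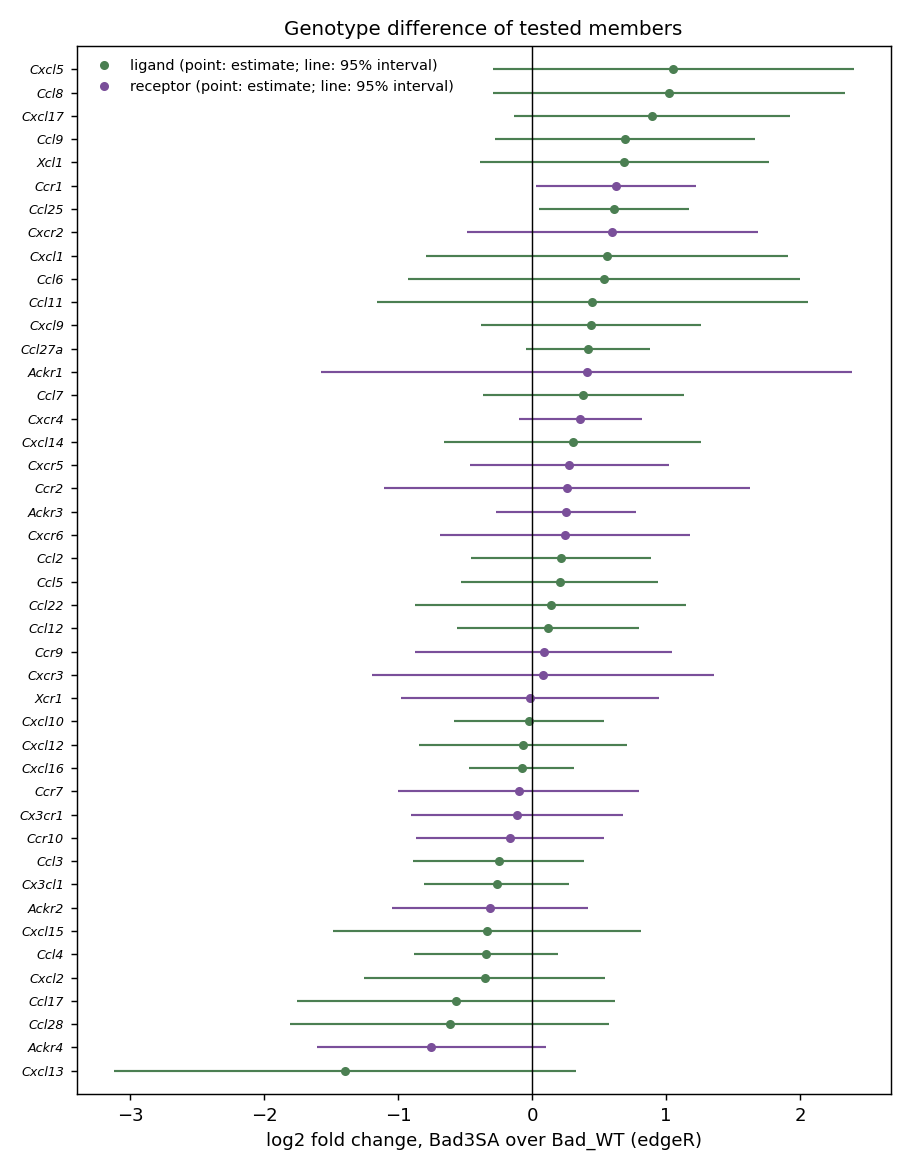
Log2 fold changes of tested members, Bad3SA over Bad_WT, from the edgeR fit; points are estimates and lines 95% intervals, green for ligands and purple for receptors. Intervals of Ccr1 and Ccl25 lie above 0 before adjustment over all genes, and all others shown include 0.

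ELR CXC ligands, which attract neutrophils, numbered 5, of which 4 were tested, 2 with an estimate above and 2 below 0. Cxcl5 ranged from 1.24 to 8.07 CPM in Bad_WT (median 1.56) and from 1.34 to 13.0 CPM in Bad3SA (median 4.37). Its high tumours were Bad_WT 3, Bad3SA 2 and Bad3SA 3, and the groups overlapped (log2 fold change 1.05, SE 0.62, edgeR adjusted p = 0.412; 1.68 without Bad_WT 3). Cxcl1 was at 0.294 to 6.72 CPM (median 1.72) and 1.13 to 6.37 CPM (median 3.45), with Bad_WT 2 the highest tumour (0.56, SE 0.63, edgeR adjusted p = 0.663). Without that tumour the Cxcl1 estimate was 1.30 (edgeR adjusted p = 0.321). Their receptor Cxcr2 was at 0.146 to 1.28 CPM (median 0.313) and 0.254 to 1.05 CPM (median 0.702), for an estimate of 0.60 (SE 0.50, edgeR adjusted p = 0.555), or 1.23 without Bad_WT 4.

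Both tested CXCR3 ligands were present in every tumour. Cxcl9 ranged from 0.882 to 5.24 CPM in Bad_WT (median 2.58) and from 2.02 to 6.46 CPM in Bad3SA (median 3.26), with Bad_WT 6 lowest and Bad3SA 2 highest (log2 fold change 0.44, SE 0.38, edgeR adjusted p = 0.569; -0.0108 with end-point age). Cxcl10 ranged from 1.58 to 4.77 CPM (median 3.24) and from 2.52 to 3.67 CPM (median 2.91). Its estimate was -0.02, with a 95% interval of -0.58 to 0.53. Cxcl11, the remaining ligand of CXCR3, is typed in the count table as a polymorphic pseudogene and is no member.

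Among other CXC ligands the estimates of Cxcl12 (-0.07, 95% interval -0.84 to 0.70) and Cxcl16 (-0.08, -0.47 to 0.32) lay near 0. Cxcl14 ranged from 29.7 to 175 CPM in Bad_WT (median 69.1) and from 63.8 to 162 CPM in Bad3SA (median 94.3), so the Bad3SA tumours lay inside the Bad_WT range (0.30, SE 0.45, edgeR adjusted p = 0.748). With end-point age the Cxcl14 estimate turned to -0.31. Cxcl17, a chemokine of mucosal epithelia, was at 0.882 to 10.4 CPM (median 5.59) and 2.87 to 14.96 CPM (median 9.79). Bad3SA 1, 2 and 3 lay above every Bad_WT tumour, while Bad3SA 6 was below all but Bad_WT 6 (0.89, SE 0.48, edgeR adjusted p = 0.371). Cxcl13, the B cell attractant that binds CXCR5, had the lowest estimate of the tested members, -1.40 (SE 0.80, edgeR adjusted p = 0.398). It stood at 0.0653 to 2.65 CPM in Bad_WT (median 0.756) and at 0.0406 to 1.00 CPM in Bad3SA (median 0.315), with Bad_WT 1 and Bad_WT 4 highest. Its estimate was -3.47 with end-point age (edgeR adjusted p = 0.357), and leaving out a tumour gave -0.89 (without Bad_WT 4) to -1.93 (without Bad3SA 2).

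Homeostatic CC ligands had 3 tested genes among 15 entries. Ccl25 (GRCm38 chromosome 8, 4325210 to 4360020), the ligand of CCR9 known from thymus and gut, was at 2.37 to 4.43 CPM in Bad_WT (median 2.66) and 2.23 to 6.61 CPM in Bad3SA (median 4.41). Apart from Bad_WT 1, the Bad_WT tumours lay between 2.37 and 2.90 CPM, and Bad3SA 2 lay below them all. The log2 fold change was 0.61 (95% interval 0.05 to 1.17, edgeR unadjusted p = 0.0346, adjusted p = 0.274). Ccl25 shares exon sequence with Elavl1 on the other strand. Ccl27a, a skin-associated ligand of CCR10, was at 4.55 to 7.78 CPM (median 6.15) and 5.49 to 11.4 CPM (median 8.32), with Bad3SA 4, 5 and 6 above every Bad_WT tumour (0.42, SE 0.21, edgeR adjusted p = 0.353). Ccl28, a mucosal ligand of the same receptor also made by mammary epithelium, had an estimate of -0.62 (SE 0.55, edgeR adjusted p = 0.583).

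Cx3cl1 was at 97.3 to 185 CPM in Bad_WT (median 149) and 67.5 to 198 CPM in Bad3SA (median 115), with Bad3SA 5 and Bad3SA 6 below every Bad_WT tumour and Bad3SA 2 above them all (log2 fold change -0.27, SE 0.25, edgeR adjusted p = 0.601). Xcl1, a product of NK and CD8 T cells, was at 0.0817 to 0.891 CPM (median 0.610) and 0.433 to 1.96 CPM (median 0.684). Bad3SA 5 was the highest tumour and Bad_WT 6 the lowest (0.69, SE 0.50, edgeR adjusted p = 0.498). The Xcl1 estimate was 0.24 without Bad3SA 5 and turned to -0.24 with end-point age.

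CC receptors had 6 tested genes of 11, 4 with an estimate above 0. Ccr1 (chromosome 9, 123962124 to 123968692), a receptor of monocytes and neutrophils that binds CCL3, CCL5, CCL6 and CCL9, was at 3.30 to 9.27 CPM in Bad_WT (median 5.22) and 5.44 to 11.2 CPM in Bad3SA (median 8.49). Only Bad3SA 1 and Bad3SA 2 lay above the highest Bad_WT tumour, Bad_WT 4. The estimate was 0.63 (95% interval 0.03 to 1.22, edgeR unadjusted p = 0.0409, adjusted p = 0.287). Ccr2 had an estimate of 0.26 with a wide interval, -1.11 to 1.63, and was 0.93 without Bad_WT 4 and -0.89 with end-point age. Ccr10, the receptor of CCL27 and CCL28, was at 0.298 to 0.708 CPM (median 0.458) and 0.250 to 0.768 CPM (median 0.372), an estimate of -0.17 (SE 0.32, edgeR adjusted p = 0.815), which turned to 0.13 with end-point age.

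Among CXC, CX3C and XC receptors, 5 of the 7 tested had an estimate above 0. Cxcr4 (chromosome 1, 128588199 to 128592293) stood at 40.7, 44.2, 36.6, 46.0, 85.4 and 86.2 CPM in Bad_WT 1 to 6 and at 68.7, 67.3, 71.6, 72.4, 69.9 and 84.7 CPM in Bad3SA 1 to 6. All Bad3SA tumours fell in the gap between the lower 4 and the upper 2 Bad_WT tumours, and the SD was 22.9 CPM in Bad_WT and 6.29 CPM in Bad3SA. The log2 fold change was 0.36 (95% interval -0.10 to 0.82, edgeR adjusted p = 0.416). Cx3cr1 had an estimate of -0.12 (-0.91 to 0.67). Cxcr3, Cxcr5, Cxcr6 and Xcr1, receptors of lymphocytes and dendritic cells, had estimates between -0.02 and 0.28. That of Cxcr3, 0.08, turned to -1.03 with end-point age.

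Of the 4 atypical receptors, Ackr3 was at 13.5 to 31.0 CPM in Bad_WT (median 17.9) and 14.7 to 33.4 CPM in Bad3SA (median 25.5), for an estimate of 0.25 (SE 0.24, edgeR adjusted p = 0.611). Ackr4, which removes CCL19, CCL21 and CCL25, was at 1.04 to 4.90 CPM (median 1.95) and 0.570 to 1.87 CPM (median 1.54), with Bad_WT 4 highest and Bad3SA 6 lowest (-0.75, SE 0.40, edgeR adjusted p = 0.364). Ackr1 and Ackr2 had estimates of 0.41 and -0.31 with intervals that include 0, and Ackr1 was at 1.98 without Bad_WT 4 and -1.38 with end-point age.

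Inflammatory CC ligands had 12 tested genes of 16, 9 with an estimate above 0 and a median of 0.21. Ccl6 (chromosome 11, 83587882 to 83593087) and Ccl9 (83572919 to 83578636) are neighbouring mouse ligands of CCR1, and Ccl8 (82115185 to 82116799) lies on the same chromosome. Ccl6 reached 83.3 CPM in Bad_WT 4 and 78.8 CPM in Bad3SA 2, where the other Bad_WT tumours lay between 4.57 and 13.6 CPM and the other Bad3SA tumours between 14.0 and 32.5 CPM. Ccl9 stood at 40.3 CPM in each of these tumours, with the others of Bad_WT at 6.80 to 13.5 CPM and of Bad3SA at 10.9 to 27.6 CPM. Ccl8 reached 24.6 CPM in Bad_WT 4 and, in Bad3SA 2, 27.4 CPM, with the others at 1.66 to 6.27 CPM and 5.79 to 20.2 CPM.

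With all tumours, the log2 fold changes were 0.54 for Ccl6 (SE 0.68, edgeR adjusted p = 0.703), 1.02 for Ccl8 (SE 0.61, edgeR adjusted p = 0.416) and 0.69 for Ccl9 (SE 0.45, edgeR adjusted p = 0.448). Without Bad_WT 4 they were 1.78, 1.91 and 1.35, with edgeR adjusted p-values of 0.0791, 0.0696 and 0.0506. Without Bad3SA 2 in place of Bad_WT 4 they were 0.0124, 0.76 and 0.46, with edgeR adjusted p-values of 0.994, 0.524 and 0.599. Leaving out both tumours gave 1.24, 1.65 and 1.11, with edgeR adjusted p-values of 0.0757, 0.1001 and 0.0626. When age was added and all tumours kept, the estimates were -0.37, 0.03 and -0.07. With age and without Bad_WT 4 they were 1.07, 1.04 and 0.74, with edgeR adjusted p-values of 0.661, 0.589 and 0.600. The only call for these 3 genes among the settings run was Ccl9 without Bad_WT 4 and without a filter on low counts (1.32, edgeR adjusted p = 0.0322), where 1.01% of genes were called. These alternatives were chosen after seeing the data, other than leaving out 1 tumour and the age covariate on their own.

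Ccl20 (chromosome 1, 83116766 to 83119167) encodes the ligand of CCR6, which attracts immature dendritic cells and IL-17-producing T cells and is typically made by epithelium. Its raw counts were 16, 18, 17, 56, 8 and 14 in Bad_WT 1 to 6 and 5, 4, 6, 4, 1 and 5 in Bad3SA 1 to 6, in all 129 and 25. Every Bad3SA tumour was below every Bad_WT tumour, and on the CPM scale the groups ran from 0.112 to 0.834 and from 0.0181 to 0.0906. Among the 20540 genes with a count that did not pass the filter, 0.127% separated in this direction, and 0.616% of the 3571 genes with a total within 2-fold of that of Ccl20 did. Ccl20 was singled out after its values were seen.

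Ccl20 did not enter the main test because fewer than 6 tumours reached the count that the filter asks for. Without a filter, its log2 fold change was -2.31 (SE 0.55, edgeR unadjusted p = 0.000438, adjusted p = 0.0577), and 0.69% of genes were called but none of the 56 members. It was -2.32 with DESeq2 (adjusted p = 0.00453). In the authors' deposited table the log2 fold change, turned to Bad3SA over Bad_WT, was -1.57 (adjusted p = 0.00384), where 4.02% of genes were under 0.05 and Ccl20 was the only member of 53. Without Bad_WT 5, the Bad_WT tumour with the fewest reads of Ccl20, the gene entered the filtered edgeR fit at -2.44 (adjusted p = 0.0491), where 0.805% of genes were called. It passed the filter there through Bad_WT tumours alone (14 to 56 counts), since no Bad3SA tumour had more than 6. That call therefore adds no separate evidence. Without a filter, leaving out each tumour gave -1.67 (without Bad_WT 4, edgeR adjusted p = 0.137) to -2.48. Adding end-point age gave -2.22 (edgeR adjusted p = 0.384). Ccr6 had 29 counts over all 12 tumours and was not tested. Ccl1, the ligand of CCR8, had 5, 6, 14, 13, 21 and 29 counts in Bad_WT and 9, 5, 2, 4, 9 and 3 in Bad3SA, with overlap between the groups (-1.41 without a filter, edgeR adjusted p = 0.329).

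**Figure D4:**
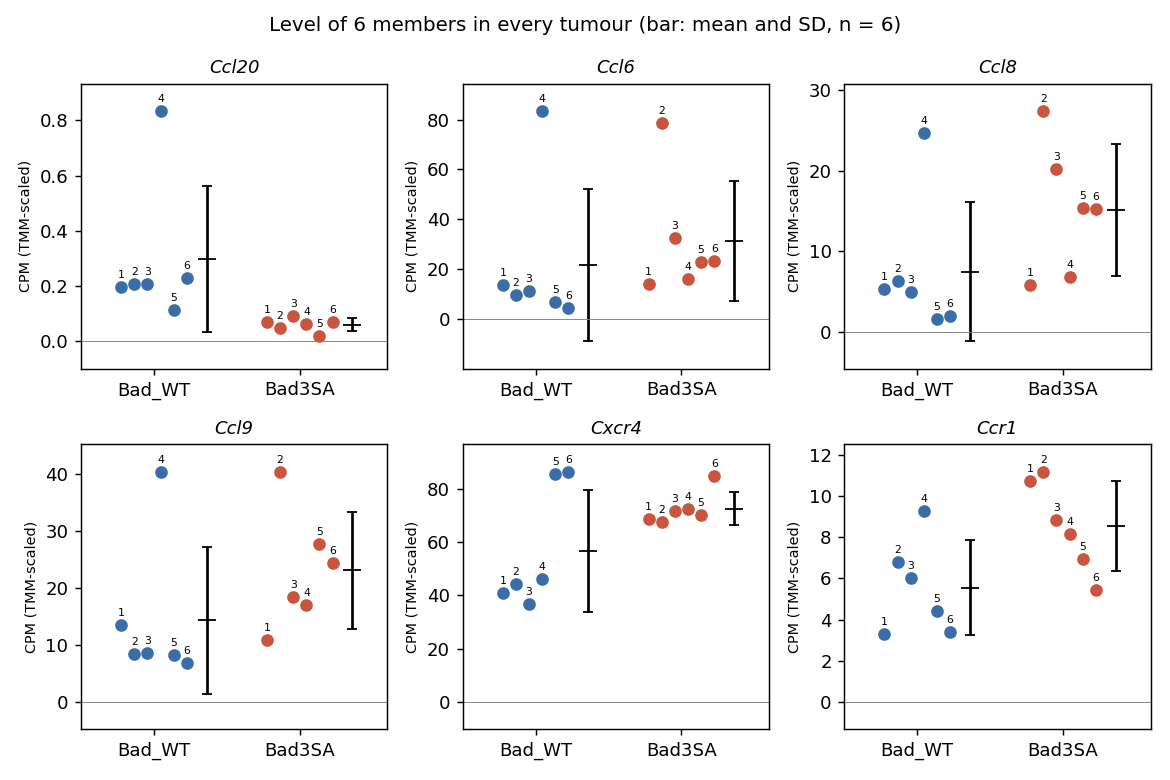
TMM-scaled CPM of Ccl20, Ccl6, Ccl8, Ccl9, Cxcr4 and Ccr1 in each tumour, numbered as in its group; the bar beside each group is the mean and SD (n = 6). The groups separate for Ccl20, Bad_WT 4 and Bad3SA 2 stand above the rest for Ccl6, Ccl8 and Ccl9, and the Bad3SA values of Cxcr4 lie inside the wider range of Bad_WT.

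Ligand and receptor levels were compared across tumours for 16 pairs, of which 11 had both genes tested. Correlations used log2(CPM + 0.5) over 12 tumours with permutation p-values adjusted over the 11. No pair had an adjusted p under 0.05 for both coefficients. The closest was Cxcl9 with its receptor Cxcr3 (Pearson r = 0.796, permutation adjusted p = 0.0242; Spearman rho = 0.748, permutation adjusted p = 0.0754). Cxcr3 was scarce, with 1 count in Bad_WT 6 (0.0163 CPM) and 1.16 CPM in its highest tumour. Without the tumours with the most extreme Cxcl9, Bad_WT 6 and Bad3SA 2, r was 0.622, and within genotypes it was 0.973 in Bad_WT and 0.526 in Bad3SA. Without Bad_WT 6 alone r was 0.596, and without Bad3SA 1 both coefficients passed (r = 0.897, rho = 0.864). T cell markers were also lowest in Bad_WT 6 (3.69 CPM), and their part in the relation was not tested. Cxcl12 and its receptor Cxcr4 had r = 0.261 and rho = 0.0909 (permutation adjusted p = 0.646 and 0.956). The sign of r was not stable for this pair: it was -0.694 without Bad_WT 1 and Bad_WT 3, 0.374 within Bad_WT and -0.673 within Bad3SA. Fractalkine and its receptor had r = 0.0438 and rho = 0.168 (permutation adjusted p = 0.983 and 0.949). Here r was -0.378 without Bad3SA 2 and Bad3SA 6, -0.44 within Bad_WT and 0.742 within Bad3SA. Differences in r between genotypes were not tested.

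Genes that act around chemokines were examined as 4 lists, and edgeR called none of their tested genes at an adjusted p of 0.05, where 1.38% of all tested genes were called and 16.2% had an unadjusted p under 0.05. Of the 27 genes of receptor signalling (G protein subunits, receptor kinases, arrestins and effectors of migration), 12 had an estimate above and 15 below 0, with a median of -0.03 and 3 unadjusted p-values under 0.05. Arrb1, the beta-arrestin that uncouples and internalises receptors, averaged 227 CPM in Bad_WT (SD 96.2) and 122 CPM in Bad3SA (SD 27.4), with an estimate of -0.90 (SE 0.25, edgeR adjusted p = 0.118). Of the 15 tested chemokine inducers (cytokines and transcription factors such as IRF1 and NF-kB subunits), 8 had an estimate above 0 and 2 an unadjusted p under 0.05, so in both lists the share with such a p was below that over all genes. Ifng had 32 counts and Il17a 2 counts over all tumours, and neither was tested.

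The 6 proteases known to cut chemokines split evenly, 3 above and 3 below 0, and 1 had an edgeR unadjusted p under 0.05. Mmp9 averaged 1.10 CPM (SD 0.712) in Bad_WT and 2.06 CPM (SD 0.700) in Bad3SA, with an estimate of 0.91 (SE 0.39, edgeR adjusted p = 0.276). Of the platelet chemokines and the non-signalling receptor Ccrl2, a list of 3 tested genes, 2 had an edgeR unadjusted p under 0.05. Ppbp had the smallest p, with an estimate of 1.42 (SE 0.55, edgeR adjusted p = 0.238) and means of 0.0891 CPM (SD 0.0569) and 0.240 CPM (SD 0.149). Ccrl2 had an estimate of -0.39 (SE 0.16, edgeR adjusted p = 0.266).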

How the data were processed

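Polyadenylated tumour RNA from 12 mice was sequenced in paired reads of 100 bases. The table the authors deposited holds whole-number read counts for each Ensembl gene and tumour. Tools named in the submitters' processing notes are fastp 0.23.1, STAR 2.7.9a and DESeq2, with the build GRCm38. Nothing in the labels or headers states the counter, its annotation or its strand setting (not given in the sources used here). The authors' deposited comparison lists for each gene a log2 fold change and standard error, a Wald score, the mean signal (counts divided by size factors) and p-values, per the file headers. Its direction is Bad_WT over Bad3SA, since its fold changes had a Spearman correlation of -0.997 with those computed here, across genes.

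The filterByExpr function of edgeR 4.0.16 (about 10 counts in at least 6 tumours) kept 18019 of 55487 genes. These were scaled by TMM and fitted by quasi-likelihood with robust dispersion on genotype alone, and p-values were adjusted by Benjamini-Hochberg over all tested genes at a threshold of 0.05. SEs were derived from the fold change and its F value, and intervals are 95%. RPKM divides TMM-scaled CPM by the union exon length of GENCODE mouse release 21, which holds all 68 entries and also gave positions and shared stretches of 100 bases. Promoter windows are RefSeq's, on GRCm38.p6. R 4.3.3, limma 3.58.1, DESeq2 1.42.0, Python 3.11.15, numpy 2.4.6 and matplotlib 3.10.9 were used.

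The members and all gene lists were chosen with earlier results of these data known. Values are named for each role list's 2 tested members with the smallest p and its member with the highest level per length, and for each pathway list's gene with the smallest p. Other values summarise the remaining members. Some genes that these rules cover are not reported here, and counts over the lists include them. Alternatives were RLE size factors, no filter, at least 1 CPM in 6 tumours, age as covariate, a block on the title number, DESeq2, limma voom with quality weights, a pseudocount of 0.1 for pair correlations, and each tumour left out. On simulated counts (6 tumours a group, 17774 genes) edgeR recovered 52% of true log2 changes of 1 and 72% of those of 2, so many such changes would be missed. The changed genes were drawn at random from all tested genes, so these shares do not give the recovery for the members. Precision rests on 58096172 to 83296370 counts a tumour and on 6 mice a group.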

Additional observations from a re-analysis of the deposited data

Results flagged for a closer look

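In groups of 6, a tumour was singled out where its gap to the nearest other tumour, as a share of the group's range, exceeded Dixon's 95% critical value. This held for 8 of the 38 groups of the 19 members named by rule, where chance gives about 1 in 20 for normally spread values and 10.2% of groups over all tested genes met it on the same CPM scale. It also held for 3 groups of Ccl6 and Ccl20, which were chosen after their values were seen and are not counted in that share. The members share tumours, so no excess over all genes is read from these counts.

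Bad_WT 4 was the high tumour of its group for Ccl6 at 83.3 CPM, Ccl8 at 24.6 CPM, Ccl9 at 40.3 CPM, Ccl20 at 0.834 CPM and the neutrophil receptor Cxcr2 at 1.28 CPM. Its 8 neutrophil markers summed to 80.5 CPM, against 7.74 to 30.6 CPM in the other Bad_WT tumours. The markers contributed unequally to such sums. Over Bad_WT, S100a8 averaged 13.9 CPM (SD 18.7), Cd177 6.94 CPM (SD 5.01), S100a9 4.64 CPM (SD 8.39) and Csf3r 3.13 CPM (SD 1.30). In Bad3SA, Ccl6 was high in Bad3SA 2 at 78.8 CPM.

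Other high tumours stood alone. Cxcl1 reached 6.72 CPM in Bad_WT 2, Cxcl5 8.07 CPM in Bad_WT 3 and Ccl25 4.43 CPM in Bad_WT 1. Xcl1 reached 1.96 CPM in Bad3SA 5, which also had the highest sum of T cell markers (23.0 CPM) and of NK cell markers (13.2 CPM). Cxcr4 reached 84.7 CPM in Bad3SA 6, in a group otherwise within 67.3 to 72.4 CPM.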

How the results depend on the processing

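Over all genes, 249 were called, against 163 with at least 1 CPM in 6 tumours, 73 with end-point age, 579 with limma voom, 998 with DESeq2, and 147 to 315 with each tumour left out. The number of members called stayed at 0 with RLE size factors, no filter, the CPM filter, age and limma voom, and was 1 with DESeq2 (Ccl20). With a tumour left out it was 0 to 1: Ccl20 without Bad_WT 5, which passed the filter there through Bad_WT tumours alone. With no filter and a tumour left out it was also 0 to 1: Ccl9 without Bad_WT 4. Unadjusted p-values were under 0.05 for 2 members in the main fit, against 16.2% of all genes, and for 9 with limma voom. For limma voom the share over all genes was not computed. The members' median log2 fold change was 0.20, with values of 0.00221 to 0.30 when a tumour was left out and -0.22 with age. Without a filter the median of all genes was 0.13 and that of members 0.14. Pairs past both adjusted p-values numbered 0, and 0 to 1 with a tumour left out (Cxcl9 with Cxcr3, without Bad3SA 1). Of 408 alternative values for 21 named members, 393 kept direction and side of the threshold, 2 passed it (Ccl20) and 13 turned direction. The Ccl9 call without Bad_WT 4 and without a filter is not among these 408 values. Those that turned were, with age, Ccl6 (-0.37), Ccl9 (-0.068), Ccr10 (0.13), Cxcl14 (-0.31), Cxcl9 (-0.0108) and Xcl1 (-0.24), with limma voom Cx3cl1 (0.0117), and with a tumour left out Cxcl10 (-0.16 to 0.16). The cause was not tested. Members under about 10 counts a tumour could not be compared in the main fit.

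No pairing by title number was seen in expression: same-numbered tumours correlated at -0.281 to 0.295 in their deviations from group means, and 1 of 6 numbers had its best match in its own number. A pairing that leaves no trace in expression cannot be seen this way. With the replicate block 105 genes (0.583%) and no member were called, Cxcl10 turned to 0.0477, and Ccl20 without a filter was at -2.10 (edgeR adjusted p = 0.155).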
